A study of Homo sapiens with 9 samples.

Results

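MIR17HG, MIR22HG and DLEU2 are long non-coding transcripts of human cells that carry microRNA hairpins. They were found by their symbols in the deposited list of assembled transcripts, which held 33 models of these 3 genes. Of those models, 26 had a value in the isoform table, among 199618 isoforms of 48558 loci. These were 4 models of MIR17HG, 14 of MIR22HG and 8 of DLEU2, and each gene was also a locus of the deposited gene table, among 22266 loci.

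The study asked which RNAs are destroyed by nonsense-mediated decay, the cytoplasmic pathway that degrades RNAs whose translation stops early. The RNA-seq data were 4 libraries, 1 per condition, labelled co-depletion of UPF1 and XRN1, co-depletion of SMG6 and XRN1, depletion of XRN1, and control. The study's design names siRNA as the means of depletion, and the control received siRNA against EGFP. All 4 libraries came from HEK293, a human embryonic kidney line, of the Flp-In T-Rex b-39 subline, which expresses a β-globin reporter with a premature stop codon (PTC39) from its Flp-In site. Poly(A)+ RNA was purified from a digitonin extract, which holds the cytoplasm, and sequenced with ScriptSeq v2. UPF1 is the central helicase of nonsense-mediated decay, SMG6 is the endonuclease that cuts its targets, and XRN1 is the cytoplasmic exonuclease that degrades RNA from the 5′ end. With 1 library per condition and a single subline there was no replicate spread and no test. Every interval given here is a 95% interval that covers counting error only.

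Estimated reads summed to between 31476528 and 35983475 per library. The mRNA of the targeted genes did not settle the labels. XRN1 was listed at 6.50, 10.1 and 7.31 FPKM (fragments per kilobase of transcript and per unit of library size) in the libraries labelled UPF1/XRN1, SMG6/XRN1 and XRN1, against 7.80 FPKM in control. SMG6 stood at 7.66 FPKM in the library labelled SMG6/XRN1 and at 4.77 FPKM in control, and UPF1 at 8.59 FPKM in the library labelled UPF1/XRN1, 11.6 FPKM in that labelled XRN1 and 6.71 FPKM in control. By estimated reads SMG6 had 1115, 672, 718 and 571 in UPF1/XRN1, SMG6/XRN1, XRN1 and control, and UPF1 had 1250, 1840, 1806 and 1099. UPF1 was thus lower in the library labelled UPF1/XRN1 than in the other depleted libraries, though above control. Each library is therefore called by its label, and the directions below are between labelled libraries. Of the markers listed for the line, VIM (360 to 380 FPKM) and KRT18 (46.5 to 55.5 FPKM) were detected, while PAX2, LHX1 and NEFM stayed under 1 FPKM in every library. The epithelial marker EPCAM was at 98.0 to 126 FPKM, the blood markers PTPRC and CD3E had at most 5 reads, the liver markers ALB and APOA1 at most 32, and COL1A1, of fibroblasts, stayed under 1 FPKM.

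A microRNA begins as a hairpin within a longer transcript. In the nucleus the Microprocessor, made of DROSHA and DGCR8, cuts the hairpin out, and DICER1 then trims it to the mature microRNA, which pairs with target mRNAs mainly through its seed. The host RNA that is left, or that escapes cutting, can be spliced, polyadenylated and exported like other RNA. MIR17HG carries the oncogenic miR-17-92 cluster, DLEU2 carries miR-15a and miR-16-1 and lies in a region deleted in chronic lymphocytic leukaemia, and MIR22HG carries miR-22.

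The main mature microRNAs of the hosts are shown to mark what each transcript encodes, with the seed (bases 2 to 8) in capitals, as RefSeq gives them on GRCh38.p14. Those of MIR17HG fell into 4 seeds, the pair in DLEU2 shared a seed, and miR-22 had its own.
hsa-miR-17-5p: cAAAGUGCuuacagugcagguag
hsa-miR-20a-5p: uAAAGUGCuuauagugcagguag
hsa-miR-18a-5p: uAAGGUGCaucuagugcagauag
hsa-miR-19a-3p: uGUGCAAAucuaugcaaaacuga
hsa-miR-19b-3p: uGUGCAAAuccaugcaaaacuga
hsa-miR-92a-3p: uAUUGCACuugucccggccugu
hsa-miR-15a-5p: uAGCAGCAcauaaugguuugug
hsa-miR-16-5p: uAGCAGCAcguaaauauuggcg
hsa-miR-22-3p: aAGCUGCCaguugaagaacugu
Identical mature forms of miR-19b, miR-92a and miR-16 also arise from MIR19B2, MIR92A2 and MIR16-2, outside these hosts. Mature microRNAs carry no poly(A) tail and are not what these libraries measure, so all values below are of host RNA.

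The position of the hairpins differed between the hosts. Coordinates of the assembled models were not used here, and structures were read from GENCODE 29 on GRCh38, in which all 19 complete-match transcripts of the 3 genes were found by identifier, 3 of them with the same version. MIR17HG occupied chr13:91347820-91354579 on the plus strand, MIR22HG chr17:1711493-1717174 on the minus strand and DLEU2 chr13:49982552-50125720 on the minus strand. In ENST00000400282 of MIR17HG all 6 hairpins lay in a 3706-base intron, while in ENST00000581816 and ENST00000582141 they lay whole in an exon. In MIR22HG the 85-base hairpin was exonic in all 9 complete-match models. In DLEU2 both hairpins lay in a 4815-base intron of 5 models. In ENST00000449579 they did not, because this transcript runs past the splice site into that intron and ends 2 bases before the first base of miR-15a-5p. The MIR15A hairpin is shown with miR-15a-5p in capitals, at chr13:50049119-50049201 on the minus strand of GRCh38, followed by the last 60 bases of ENST00000449579 with its 12 hairpin bases in capitals.
MIR15A hairpin: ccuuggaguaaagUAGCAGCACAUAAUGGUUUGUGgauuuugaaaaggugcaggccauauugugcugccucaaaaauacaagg
ENST00000449579.1 end: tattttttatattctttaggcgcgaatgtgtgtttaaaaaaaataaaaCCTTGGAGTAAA
The spliced junctions that pass over the hairpins are shown with the first bases of the downstream exon in capitals. They identify the host RNA from which the hairpin-bearing intron is gone.
ENST00000400282.6 exons 3 and 4: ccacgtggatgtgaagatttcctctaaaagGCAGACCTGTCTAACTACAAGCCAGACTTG
ENST00000458725.5 last junction: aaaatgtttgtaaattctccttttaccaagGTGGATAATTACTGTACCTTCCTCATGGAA

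**Figure D1:**
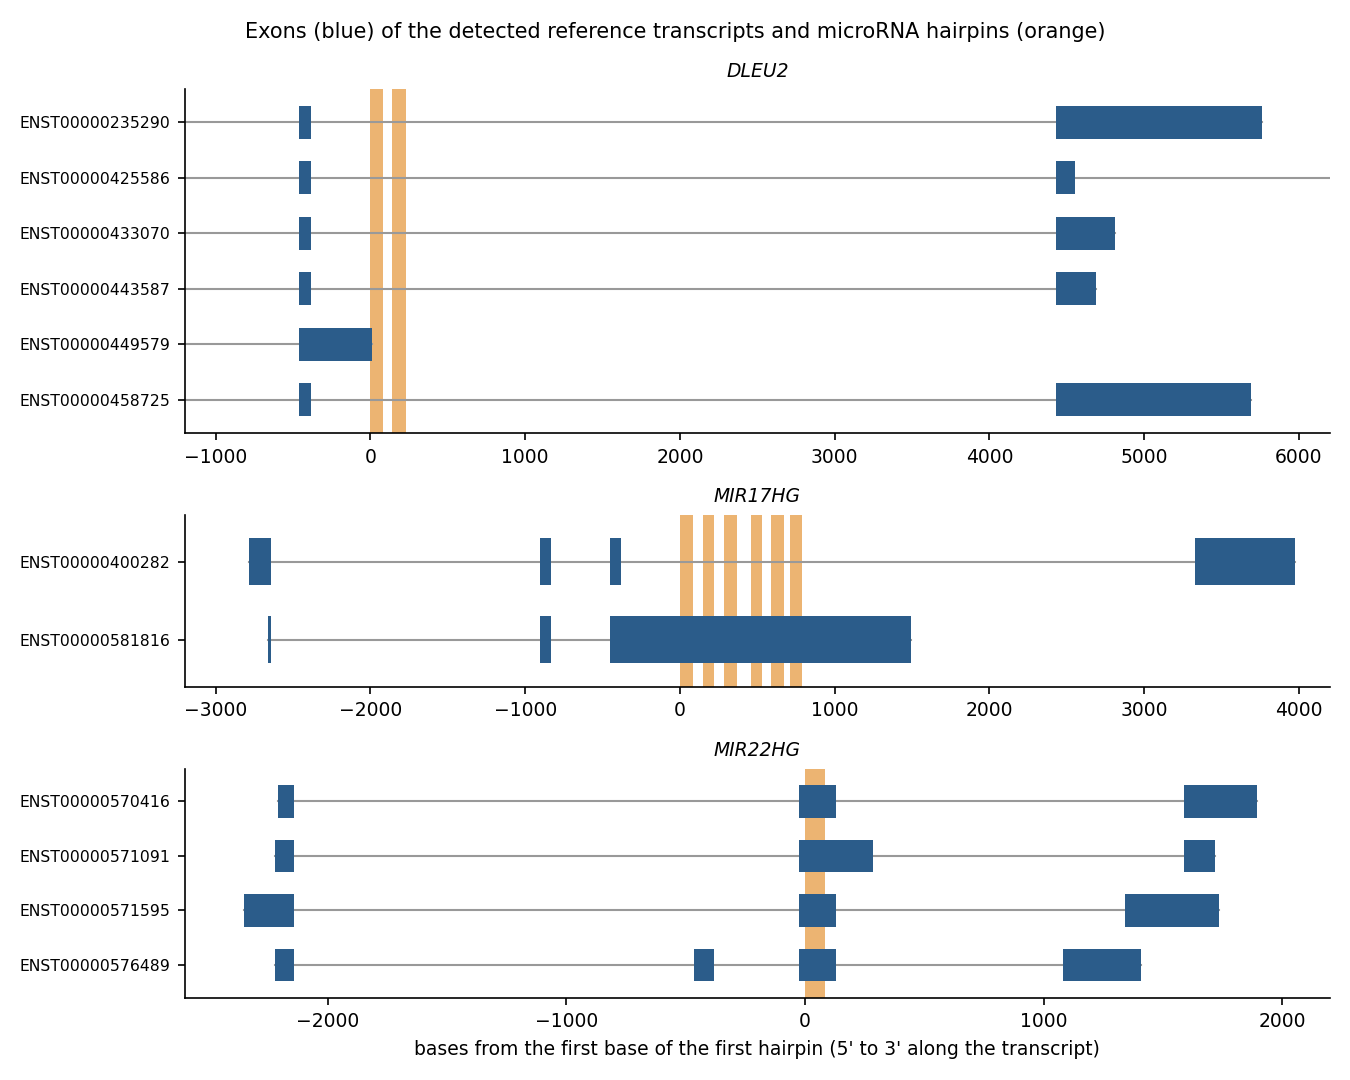
Exons (blue boxes) of the complete-match transcripts with reads in at least 1 library, drawn to scale by distance in bases from the first base of the first hairpin, 5′ to 3′ along the transcript, with microRNA hairpins in orange. The DLEU2 panel is a window around the hairpins that leaves out exons further away, among them the first exon of every model. In DLEU2 only ENST00000449579 reaches a hairpin with an exon, ending 2 bases before miR-15a-5p; in MIR17HG the hairpins are intronic in ENST00000400282 and exonic in ENST00000581816, and in MIR22HG they are exonic throughout.

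By length-scaled level DLEU2 was the highest of the hosts in every library. It was listed at 69.5, 49.9, 31.2 and 49.7 FPKM in the libraries labelled UPF1/XRN1, SMG6/XRN1, XRN1 and control. MIR17HG was listed at 2.34, 1.29, 1.27 and 1.08 FPKM, and MIR22HG at 1.29, 1.08, 0.746 and 1.10 FPKM, in the same order of libraries. DLEU2 lay above 92.7% of all loci in control by FPKM, whereas MIR17HG lay above 49.3% and MIR22HG above 49.5%. The order of MIR17HG and MIR22HG in control rests on 1.08 against 1.10 FPKM and cannot be resolved with 1 library.

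DLEU2 and MIR22HG were lowest in the library labelled XRN1 and were higher in both co-depletions, while MIR17HG differed less. In bulk RNA, a change in the share of cells that express a host and a change per cell cannot be told apart. Reads per locus were recovered from the spike-in scaled isoform values, and ratios keep the authors' spike-in scale. DLEU2 had 2236 reads (2144 to 2331) in the library labelled UPF1/XRN1, 1502 (1427 to 1580) in that labelled SMG6/XRN1, 926 (867 to 988) in that labelled XRN1 and 1620 (1542 to 1701) in control. None of these 4 intervals overlapped except those of SMG6/XRN1 and control. The ratio was 2.22 (2.05 to 2.40) for UPF1/XRN1 over XRN1, 1.70 (1.57 to 1.85) for SMG6/XRN1 over XRN1 and 0.601 (0.553 to 0.652) for XRN1 over control. Against control, DLEU2 stood at 1.33 (1.25 to 1.42) in UPF1/XRN1 and at 1.02 (0.953 to 1.10) in SMG6/XRN1, so on the spike-in scale the library labelled SMG6/XRN1 differed from control by less than counting error. Relative to the estimated reads of each library, in place of that scale, the ratio for SMG6/XRN1 over control turned to 0.842, below that interval.

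MIR22HG had 76 reads (59.9 to 95.1) in the library labelled UPF1/XRN1, 65 (50.2 to 82.8) in that labelled SMG6/XRN1, 31 (21.1 to 44.0) in that labelled XRN1 and 68 (52.8 to 86.2) in control. Only the library labelled XRN1 stood apart. The ratio was 2.25 (1.47 to 3.54) for UPF1/XRN1 over XRN1, 2.20 (1.41 to 3.49) for SMG6/XRN1 over XRN1 and 0.479 (0.303 to 0.743) for XRN1 over control. Against control both co-depletions were within counting error, at 1.08 (0.767 to 1.52) for UPF1/XRN1 and 1.05 (0.739 to 1.50) for SMG6/XRN1.

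MIR17HG had 192 reads (166 to 221) in the library labelled UPF1/XRN1, 129 (108 to 153) in that labelled SMG6/XRN1, 128 (107 to 152) in that labelled XRN1 and 118 (97.7 to 141) in control. It was highest in the library labelled UPF1/XRN1, and the other 3 libraries overlapped. Put on the spike-in scale, its interval there, 155 to 207, also overlapped that of SMG6/XRN1, 115 to 164. The ratio was 1.38 (1.10 to 1.74) for UPF1/XRN1 over XRN1, 1.06 (0.822 to 1.36) for SMG6/XRN1 over XRN1 and 1.14 (0.881 to 1.48) for XRN1 over control. Against control it was 1.57 (1.24 to 1.99) in UPF1/XRN1. The deposited FPKM gave a ratio of 2.17 there with nothing added, and log2 0.68 with 1 FPKM added to both libraries, which is short of 2-fold.

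**Figure D2:**
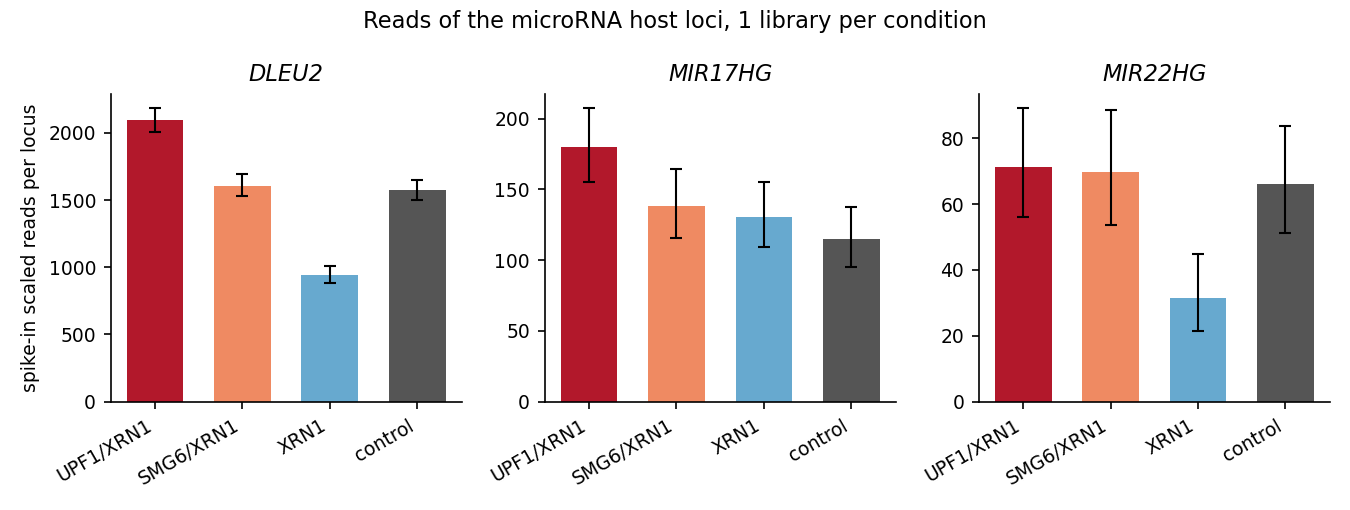
Reads of DLEU2, MIR17HG and MIR22HG in the 4 libraries, labelled UPF1/XRN1, SMG6/XRN1, XRN1 and control from left to right, on the spike-in scale (vertical axis, reads put on the mean value of 1 read). Bars are 1 library each and error bars are exact Poisson 95% intervals; DLEU2 and MIR22HG are lowest in XRN1 and MIR17HG is highest in UPF1/XRN1.

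These changes were set against 16726 loci with a mean of at least 10 reads, on the log2 scale with 1 read added to both libraries and 2-fold as the threshold. Comparisons that share the XRN1 or the control library are not independent of each other. For UPF1/XRN1 over XRN1, DLEU2 (log2 1.15) and MIR22HG (1.15) were at least 2-fold higher, 2 of the 3 hosts, against 8.4% of all loci, and 0 were lower, against 2.39%. For SMG6/XRN1 over XRN1, MIR22HG alone passed (1.11), against 6.48% of loci, with DLEU2 at 0.77 and MIR17HG at 0.08, and 0 were lower, against 0.568%. For XRN1 over control, MIR22HG alone was at least 2-fold lower (log2 -1.04), against 2.48% of loci, with DLEU2 at -0.73 and MIR17HG at 0.19, and 0 were higher, against 10.5%. Of all loci, 2.23% lay below MIR22HG and 4.51% below DLEU2 in that comparison. The median locus stood at log2 0.11, 0.23 and 0.18 in these 3 comparisons, so DLEU2 and MIR22HG lay above it in both comparisons with XRN1 and below it in XRN1 over control. MIR17HG lay above the median locus for UPF1/XRN1 over XRN1, below it for SMG6/XRN1 over XRN1 and next to it for XRN1 over control. The MIR22HG calls were close to the threshold. With 10 reads added in place of 1, all 3 were lost, at log2 0.96 for UPF1/XRN1 over XRN1, 0.94 for SMG6/XRN1 over XRN1 and -0.87 for XRN1 over control. Relative to the estimated reads of each library the call for SMG6/XRN1 over XRN1 was lost as well, at 0.97. Against control, 0 of the 3 hosts passed 2-fold in UPF1/XRN1 or SMG6/XRN1, where 18.8% and 19.8% of loci were higher and 2.13% and 0.969% lower.

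**Figure D3:**
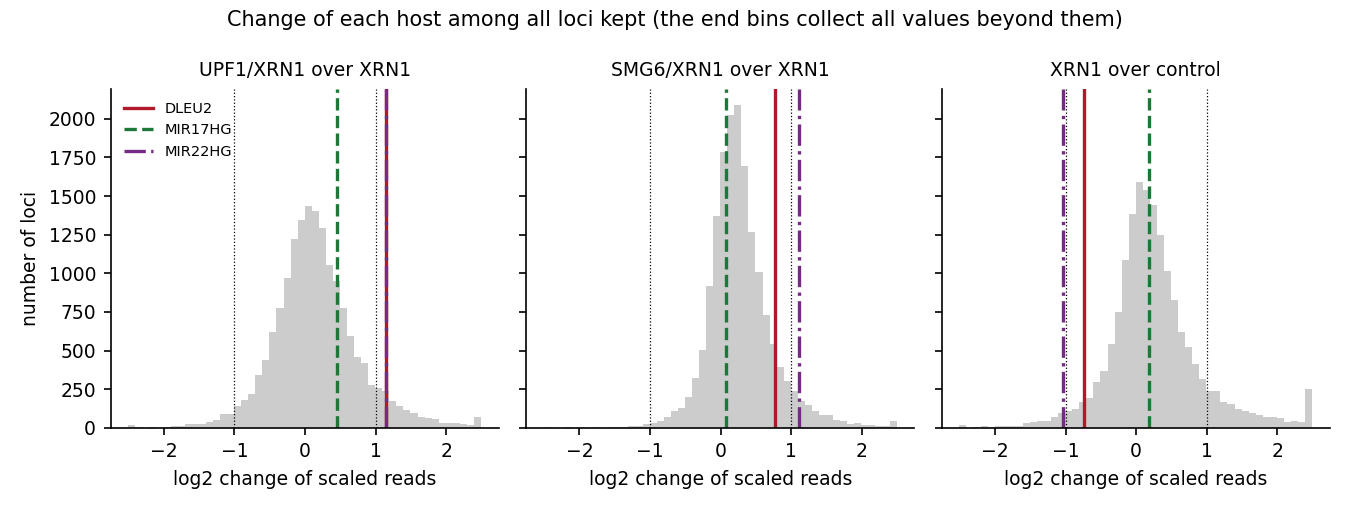
Number of loci (vertical axis) by log2 change of scaled reads (horizontal axis) for UPF1/XRN1 over XRN1, SMG6/XRN1 over XRN1 and XRN1 over control, over 16726 loci, with lines for the hosts and dotted lines at 2-fold. DLEU2 and MIR22HG fall in the upper tail of both comparisons with XRN1 and in the lower tail of XRN1 over control, where they stand at -0.73 and -1.04.

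The deposited FPKM gave smaller changes for MIR22HG. Among 12164 loci with a mean of at least 1 FPKM, and with 1 FPKM added to both libraries, DLEU2 alone of the hosts was at least 2-fold higher for UPF1/XRN1 over XRN1, at log2 1.13, against 2.52% of loci. MIR22HG stood at 0.39 there, at 0.26 for SMG6/XRN1 over XRN1 and at -0.27 for XRN1 over control. With nothing added it was still short of 2-fold, at 0.80, 0.54 and -0.57 in the same order of comparisons. MIR17HG was larger by FPKM than by reads for UPF1/XRN1 over XRN1, at 0.56 against 0.46. By FPKM with nothing added, MIR17HG stood at 0.88 there.

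The make-up of DLEU2 also differed between libraries. The isoform read numbers are the authors' estimates, which divide reads of shared exons between models, and the intervals do not cover that division. The leading isoform, ENST00000458725, a 5-exon transcript spliced over the hairpins, had 884 estimated reads in the library labelled UPF1/XRN1, 776 in that labelled SMG6/XRN1, 498 in that labelled XRN1 and 1040.4 in control. It was highest in control, and it made up 39.6% (37.5 to 41.6), 51.7% (49.1 to 54.2), 53.8% (50.5 to 57.0) and 64.2% (61.8 to 66.5) of DLEU2 reads in the same order of libraries. Its ratio was 1.63 (1.46 to 1.82) for UPF1/XRN1 over XRN1, 1.64 (1.46 to 1.83) for SMG6/XRN1 over XRN1 and 0.503 (0.451 to 0.560) for XRN1 over control. It remained below control in both co-depletions, at 0.820 (0.749 to 0.898) in UPF1/XRN1 and 0.823 (0.749 to 0.904) in SMG6/XRN1.

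ENST00000449579, the transcript shown above that ends at the edge of miR-15a-5p, followed another pattern. It had 500.1 estimated reads in the library labelled UPF1/XRN1, 175 in that labelled SMG6/XRN1, 73.9 in that labelled XRN1 and 135 in control. These were 22.4% (20.6 to 24.1), 11.7% (10.1 to 13.4), 7.98% (6.33 to 9.93) and 8.35% (7.03 to 9.79) of DLEU2 reads. Its share in the library labelled UPF1/XRN1 was above that of every other library by more than counting error. The ratio was 6.21 (4.85 to 8.03) for UPF1/XRN1 over XRN1, 2.49 (1.88 to 3.30) for SMG6/XRN1 over XRN1 and 0.574 (0.428 to 0.770) for XRN1 over control. Against control it was 3.57 (2.95 to 4.36) in UPF1/XRN1 and 1.43 (1.14 to 1.80) in SMG6/XRN1. A stretch of 394 bases of this transcript lies in no exon of the hairpin-skipping models. Reads of DLEU2 RNA that retains the intron would fall in the same bases, and the deposited values do not separate them.

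ENST00000433070, a 4-exon transcript spliced over the hairpins, was the other isoform with over 10% of DLEU2 reads. It had 479 estimated reads in the library labelled UPF1/XRN1, 310.1 in that labelled SMG6/XRN1, 226 in that labelled XRN1 and 327 in control. Its share stayed between 20.2% and 24.4%, so it moved with the locus. Its ratio was 1.95 (1.66 to 2.29) for UPF1/XRN1 over XRN1 and 0.726 (0.610 to 0.863) for XRN1 over control.

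The 3 minor DLEU2 isoforms differed by less than counting error between the library labelled XRN1 and control. ENST00000443587 had 184, 123, 71.7 and 57.9 estimated reads in the libraries labelled UPF1/XRN1, SMG6/XRN1, XRN1 and control. ENST00000425586, which starts 43728 bases upstream of the other models, had 149, 85.8, 46.1 and 49.2. ENST00000235290 had 39.9, 30.7, 10.1 and 10.5. Each was highest in UPF1/XRN1 and next highest in SMG6/XRN1. Their ratios for UPF1/XRN1 over control were 3.06 (2.27 to 4.19), 2.91 (2.11 to 4.14) and 3.67 (1.90 to 8.66), and those for XRN1 over control were 1.30 (0.910 to 1.88), 0.984 (0.645 to 1.51) and 1.01 (0.392 to 2.81). ENST00000421758, which ends 1 base before miR-15a-5p, and the model of the MIR16-1 precursor were listed at 0 in all 4 libraries.

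Without ENST00000458725, DLEU2 summed to 1352 estimated reads in the library labelled UPF1/XRN1, 726 in that labelled SMG6/XRN1, 428 in that labelled XRN1 and 580 in control. The ratio of these sums was 2.25 (2.04 to 2.48) for UPF1/XRN1 over control and 1.38 (1.24 to 1.54) for SMG6/XRN1 over control, against 1.33 and 1.02 for the whole locus. In SMG6/XRN1 the locus thus summed a leading isoform below control, ENST00000433070 within counting error of control at 1.05 (0.892 to 1.23), and 4 other kept isoforms above control.

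**Figure D4:**
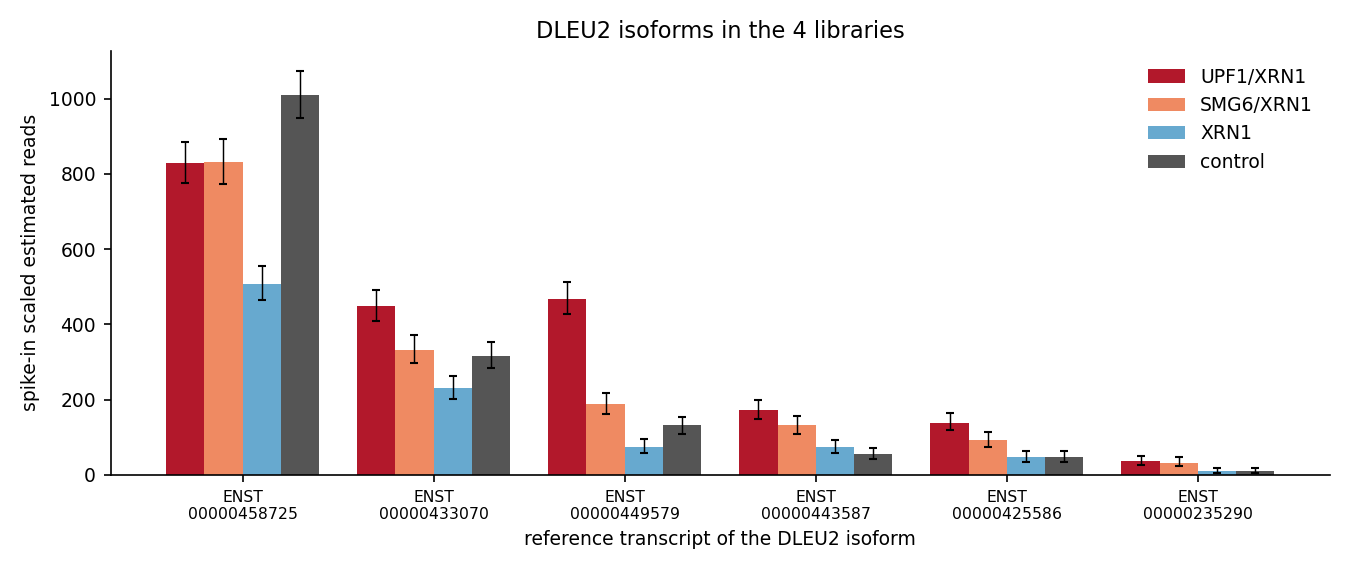
Estimated reads (vertical axis, spike-in scale) of the 6 DLEU2 isoforms with a mean of at least 10 reads, with bars for the libraries labelled UPF1/XRN1, SMG6/XRN1, XRN1 and control from left to right and Poisson 95% intervals. ENST00000458725 is highest in control, while ENST00000449579 is highest in UPF1/XRN1, at 500.1 estimated reads against 135 in control.

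A stop codon well upstream of the last exon junction is the textbook feature of transcripts that nonsense-mediated decay recognises. Counted from the first AUG, the reading frame of the 7 DLEU2 models had 8 to 19 codons and ended 132 to 801 bases before the last junction. This was so for ENST00000458725 (12 codons, 357 bases) and for ENST00000449579 (12 codons, 278 bases) alike. In MIR17HG the frame of ENST00000400282 had 34 codons and ended 61 bases before the last junction, while that of ENST00000581816 had 23 codons and ended after it. In MIR22HG the frames of the 9 complete-match models had only 2 codons, except for 20 in ENST00000577164. They ended 88 to 258 bases before the last junction. Those models held few of its reads, and the frames of its leading models were not read. Whether any of these frames is translated was not measured.

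Reads of DLEU2 can also come from a near copy, DLEU2L on chromosome 1, which aligned to ENST00000458725 over 1539 of its 1657 bases at 97.0% identity. DLEU2L had 157, 169, 105 and 144 estimated reads in the libraries labelled UPF1/XRN1, SMG6/XRN1, XRN1 and control, and nothing used here says how reads that match both were divided. The values of the isoforms that share this sequence are uncertain to that extent. For ENST00000449579 the copy aligned over 399 of 791 bases. TRIM13 and KCNRG lie within the annotated DLEU2 gene span on the opposite strand. Both lie past the 3′ end of every complete-match DLEU2 model, so those models could share no exonic bases with them. The use of strand in the counting is unknown too. TRIM13, a ubiquitin ligase gene, had 1107, 1257, 1326 and 1454 reads in the 4 libraries, lowest where DLEU2 was highest. DLEU1, which starts 178 bases from the main DLEU2 start and runs the other way, had 1042, 1010.1, 1103 and 689 estimated reads. Its ratio for XRN1 over control was 1.68 (1.53 to 1.85), against 0.601 for DLEU2.

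In MIR17HG the leading model was 1 with a splice junction outside the reference, closest to ENST00000400282, and its exon positions were not used here. It had 99.6 estimated reads in the library labelled UPF1/XRN1, 95.8 in that labelled SMG6/XRN1, 109.9 in that labelled XRN1 and 89.1 in control, with overlapping intervals. The reference form ENST00000400282, from which the cluster is spliced out, had 55.2, 19.3, 18.1 and 14.9. It made up 28.8% (22.4 to 35.6), 14.9% (9.11 to 22.0), 14.1% (8.55 to 21.3) and 12.6% (7.29 to 20.1) of MIR17HG reads. Its ratio was 2.81 (1.62 to 5.08) for UPF1/XRN1 over XRN1 and 3.58 (1.97 to 6.74) for UPF1/XRN1 over control, while SMG6/XRN1 over XRN1 was within counting error at 1.12 (0.550 to 2.24).

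ENST00000581816 of MIR17HG, which keeps all 6 hairpins in an exon, had 37.1 estimated reads in the library labelled UPF1/XRN1, 14.0 in that labelled SMG6/XRN1, was listed at 0 in that labelled XRN1 and had 14.0 in control. Its ratio for UPF1/XRN1 over control was 2.56 (1.35 to 5.11). By these estimates ENST00000400282 and ENST00000581816 were higher than control in UPF1/XRN1, while the leading model was within counting error, at 1.08 (0.807 to 1.46). Whether the leading model skips or keeps the cluster is not known here. In ENST00000581816, 1870 bases lie in no exon of ENST00000400282. Reads of MIR17HG RNA that retains the intron would fall in such bases too, and the deposited values do not separate them. The other cluster-retaining model, ENST00000582141, was listed at 0 in all libraries, and the 6 models that match only the hairpin precursors had no row in the isoform table.

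MIR22HG was assembled mainly as models with junctions outside the reference, closest to ENST00000334146. They held at least 91.9% of its reads in the libraries labelled UPF1/XRN1, SMG6/XRN1 and control, and 81.3% in that labelled XRN1. The first of these models was level, with 19.3, 18.8, 20.3 and 23.0 estimated reads. The next had 19.2 and 20.1 in the co-depletions, was listed at 0 in the library labelled XRN1 and had 20.5 in control. Another had 27.3, 22.4, 0.908 and 11.7, and its ratio over control was 2.25 (1.06 to 4.71) in UPF1/XRN1 and 2.11 (0.958 to 4.48) in SMG6/XRN1. The lower MIR22HG level in the library labelled XRN1 therefore sat in 2 models with fewer than 1 read there, beside a model that was level. A further model had at most 4.01 estimated reads in the depleted libraries and 9.46 in control. The 9 complete-match models together had at most 6.16 reads in any library, and on them alone the XRN1 over control change turned to log2 0.68.

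**Figure D5:**
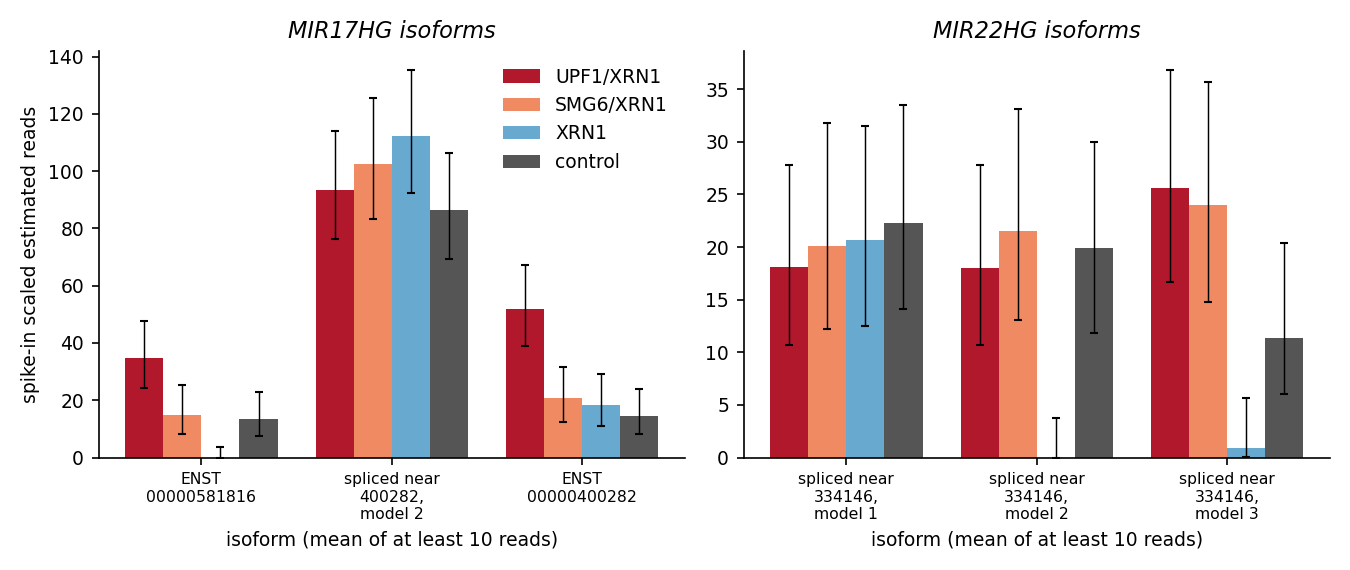
Estimated reads (vertical axes, spike-in scale) of the MIR17HG and MIR22HG isoforms with a mean of at least 10 reads, with bars for the libraries labelled UPF1/XRN1, SMG6/XRN1, XRN1 and control from left to right and Poisson 95% intervals; isoforms named as spliced near a reference transcript hold junctions outside it. In MIR17HG both reference forms are highest in UPF1/XRN1, and in MIR22HG 2 of the 3 isoforms have fewer than 1 read in XRN1.

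Over the hosts' isoforms, 12 of 26 had a mean of at least 10 estimated reads, 6 of DLEU2 and 3 of each other host. At least 2-fold higher, with 1 added to the signal, were 8 of the 12 for UPF1/XRN1 over XRN1 (26.3% of 57135 isoforms kept), 5 for SMG6/XRN1 over XRN1 (24.2%) and 0 for XRN1 over control (23.7%). Against control 7 were higher in UPF1/XRN1 (34.9%) and 3 in SMG6/XRN1 (34.5%). At least 2-fold lower were 3 for XRN1 over control (11.8%) and 0 for UPF1/XRN1 over XRN1 (10.9%), SMG6/XRN1 over XRN1 (8.58%), UPF1/XRN1 over control (9.66%) and SMG6/XRN1 over control (7.94%). The 3 lower ones were ENST00000581816 and a pair of MIR22HG models, which also entered the higher counts over XRN1, and each had under 1 read in the library labelled XRN1. Median changes of the 12 were log2 1.52, 0.91 and -0.28 for UPF1/XRN1 over XRN1, SMG6/XRN1 over XRN1 and XRN1 over control, beside 0.23, 0.29 and 0.19 for all isoforms kept. Isoforms kept through the libraries in which they are high had to differ, so these counts describe the models only.

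The authors' deposited table marks an isoform as a decay target where both co-depletions exceed 2 times control, which held for 28034 isoforms, 14.0% of all. Of the hosts' 26 isoforms, 3 carried the mark. They were ENST00000443587 and ENST00000235290 of DLEU2 and the MIR22HG model with 27.3 estimated reads in UPF1/XRN1. ENST00000449579 did not carry it, since it stood at 1.43 times control in SMG6/XRN1.

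The genes with the pattern most like each host were taken from 7835 genes with a mean of at least 5 FPKM, by the largest difference over the 3 log2 changes from control in the 4 libraries. For DLEU2 they were GDAP1, YPEL3 and AP4S1, each within 0.22. For MIR17HG they were UBR1, ACAD9 and CDO1, within 0.08. For MIR22HG they were CHMP1A, TBCC and JOSD1, within 0.05. These changes had 1 FPKM added, which shrinks those of hosts near 1 FPKM more than those of the genes searched. With nothing added, MIR22HG moved from -0.27 to -0.57 for XRN1 over control. MIR17HG moved from 0.68 to 1.11 for UPF1/XRN1 over control. The likeness of MIR17HG and MIR22HG therefore depends on the added value.

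Of 41 symbols listed as other non-coding microRNA hosts, 20 occurred in the deposited list of assembled transcripts and 17 were the leading symbol of a locus. Of those, 9 had a locus with a mean of at least 10 reads. MIR155HG, host of miR-155, had 26, 17, 4 and 14 reads in the libraries labelled UPF1/XRN1, SMG6/XRN1, XRN1 and control. It was lowest in the library labelled XRN1, at log2 -1.52 against control, and stood at 2.32 and 1.92 for UPF1/XRN1 and SMG6/XRN1 over XRN1. NEAT1, the scaffold RNA of paraspeckles, had 4045, 2234, 1015 and 979 reads, and was at 1.87 and 1.21 over XRN1 but at 0.12 in XRN1 over control. Paraspeckles lie in the nucleus, and how much nuclear RNA each extract held was not tested. H19, an imprinted RNA, had 20, 9, 25 and 52 reads. It was lower than control in both co-depletions, at log2 -1.38 in UPF1/XRN1 and -2.28 in SMG6/XRN1. NEAT1 was the highest of the 9 over control, at 1.99 and 1.33 in the same order. In each co-depletion 3 of the 9 were at least 2-fold higher than control and 1, H19, lower. Of all loci, 18.8% were higher and 2.13% lower in UPF1/XRN1, and 19.8% and 0.969% in SMG6/XRN1. For UPF1/XRN1 over XRN1, 4 of the 9 were at least 2-fold higher and 0 lower, with a median of 0.87, beside 8.4% and 2.39% of all loci and a median of 0.11. For SMG6/XRN1 over XRN1, 3 were higher and 1 lower, with a median of 0.60, beside 6.48% and 0.568% of all loci and a median of 0.23. For XRN1 over control, 1 was higher, LINC00461 at 1.24, and 1 lower, with a median of -0.57, beside 10.5% and 2.48% of all loci and a median of 0.18. CRNDE, another of the 9, held no annotated microRNA gene on its strand in GENCODE 29, and LINC00478 was not matched there.

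Of 45 listed protein-coding microRNA hosts, 39 were kept. IARS2, COPG2 and MIB1 among them held no annotated microRNA gene on their strand in GENCODE 29, and NRD1 was not matched. For UPF1/XRN1 over XRN1, 1 was higher, PANK2 (log2 1.11, host of miR-103a), against 8.4% of all loci, and 0 lower, against 2.39%. The median was -0.00 beside 0.11 for all loci. For SMG6/XRN1 over XRN1 none of the 39 passed, against 6.48% of all loci higher and 0.568% lower, with a median of 0.18 beside 0.23. For XRN1 over control 4 of the 39 were higher, near the 10.5% of all loci, and 0 lower, against 2.48%. The median there was 0.24 beside 0.18. DGCR8, whose mRNA itself contains hairpins cut by the Microprocessor, had 2203, 1889, 1747 and 422 reads in the libraries labelled UPF1/XRN1, SMG6/XRN1, XRN1 and control. It was high in all 3 depleted libraries, at log2 2.12 for XRN1 over control.

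Of 22 listed genes of microRNA processing and function, 17 were kept. The core nucleases stayed within 2-fold. DROSHA had 6637, 5816, 5217 and 5699 reads, and DICER1 had 3756, 3619, 3816 and 2986. For UPF1/XRN1 over XRN1, 0 of the 17 passed 2-fold (8.4% of all loci higher, 2.39% lower), with a median of 0.21 beside 0.11. For SMG6/XRN1 over XRN1 1 did, AGO3 at 1.01, near the 6.48% of all loci, with a median of 0.24 beside 0.23. For XRN1 over control 2 were higher, DGCR8 and PRKRA (1.09), a partner of DICER1, near the 10.5% of all loci, with a median of 0.20 beside 0.18.

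Of 14 genomic neighbours, 10 were kept. For XRN1 over control 1 was higher, SMYD4 at log2 1.15, near the 10.5% of all loci, with a median of 0.03 beside 0.18. Of these neighbours 0 passed in either direction for UPF1/XRN1 over XRN1, against 8.4% of all loci higher and 2.39% lower. The median was 0.11, as for all loci. For SMG6/XRN1 over XRN1 0 passed either, against 6.48% higher and 0.568% lower (median 0.34 beside 0.23). Non-coding snoRNA hosts, which carry small nucleolar RNAs in introns, had 14 of 17 kept. For UPF1/XRN1 over XRN1, 10 were higher, against 8.4% of all loci, with a median of 1.30. For SMG6/XRN1 over XRN1 7 were higher, against 6.48%, with a median of 1.07. For XRN1 over control 9 were higher, against 10.5%, and 1 lower, against 2.48%, with a median of 1.21. SNHG1 was highest for UPF1/XRN1 over XRN1, at 2.34, and stood at 1.62 for XRN1 over control, the direction in which DLEU2 (-0.73) and MIR22HG (-1.04) were lower. SNHG10 was the lower one, at -1.44.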

How the data were processed

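Cytoplasmic poly(A)+ RNA was sequenced from 4 libraries, grouped by their labels, 1 per condition. The other 5 samples, of 5′-end sequencing and CAGE, were not analysed here. Per the submitters' processing notes, the authors used TopHat2 2.0.6, Cufflinks 2.0.2, Bowtie 0.12.7 and CASAVA 1.8.2 on hg19, in roles that the notes leave unstated. Gene values are FPKM per assembled locus, deposited by the authors. Isoform values are a spike-in normalised signal, deposited by the authors, and the spike-in used, its factor and any use of strand are details not given in the sources used here. Class codes, identifiers and TRUE or FALSE marks are as the authors deposited them; the decay mark equalled its 2-fold rule with 0 mismatches.

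Low locus sums of the signal were whole multiples of 1 step per library (3.72, 4.25, 4.05 and 3.85 for UPF1/XRN1, SMG6/XRN1, XRN1 and control), taken as the value of 1 read. Of loci with up to 20 reads, 84.5% to 86.6% were whole within 0.01. Reads are signal divided by the step, and ratios were scaled by the steps. Intervals are exact Poisson for reads, exact conditional binomial for ratios and exact Clopper-Pearson for shares, at 95%, and they cover counting error only. Log2 changes added 1 (a read for loci, 1 unit of signal for isoforms, 1 FPKM in the gene table), 2-fold was the threshold, and features needed a mean of 10 reads or 1 FPKM. The search for the step and the calls were tested on simulated data with changes well past the threshold.

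The members and lists were chosen with earlier results of these data known. Some of the marker genes listed are not reported here. All 3 hosts are named. Isoforms with at least 10% of a host's reads in any library are given in full, list genes past 2-fold by at most 2 highest and 2 lowest, and likeness by the 3 nearest genes; LINC00461, TRIM13, DLEU1, DROSHA and DICER1 are named besides as members of the lists. Sequences came from RefSeq (GRCh38.p14) and GENCODE 29, not from the authors' hg19 build. Python 3.11.15, pandas 2.3.3, SciPy 1.17.1 and Biopython 1.88 were used. Alternatives changed the scale, pseudocount, filter, table and isoforms summed.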

Additional observations from a re-analysis of the deposited data

How the results depend on the processing

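The changes of the 3 hosts in the 5 comparisons kept their direction with 0 or 10 reads added, but with 10 added the 3 calls of MIR22HG ended, at log2 0.96 and 0.94 in UPF1/XRN1 and SMG6/XRN1 relative to XRN1, and -0.87 in XRN1 relative to control. On complete-match isoforms alone, MIR22HG turned to log2 0.68 for XRN1 over control, -0.51 for SMG6/XRN1 over XRN1 and -0.028 for UPF1/XRN1 over XRN1, and moved to 0.65 for UPF1/XRN1 over control; these values rest on at most 6.16 reads per library. On the same isoforms MIR17HG moved to -0.58 for XRN1 over control, 0.91 for SMG6/XRN1 over XRN1, 2.17 for UPF1/XRN1 over XRN1 and 1.59 for UPF1/XRN1 over control, since its leading model was left out. By the deposited FPKM with nothing added, so that table and added value differ at once, MIR17HG moved to 0.88 for UPF1/XRN1 over XRN1 and 1.11 for UPF1/XRN1 over control; the cause was not tested. MIR22HG lost its 3 calls there, at 0.80 and 0.54 in UPF1/XRN1 and SMG6/XRN1 relative to XRN1, and -0.57 in XRN1 relative to control. Per estimated reads of the library, in place of the spike-in scale, MIR22HG lost its call for SMG6/XRN1 over XRN1, at 0.97, and DLEU2 moved to -0.87 for XRN1 over control, 0.63 for SMG6/XRN1 over XRN1, -0.25 for SMG6/XRN1 over control and 0.27 for UPF1/XRN1 over control. Counts of all features past 2-fold are given for XRN1 over control, SMG6/XRN1 over XRN1, UPF1/XRN1 over XRN1, SMG6/XRN1 over control and UPF1/XRN1 over control, in that order. Isoforms numbered 20300, 18723, 21237, 24240 and 25464, with no filter 51871, 52124, 57082, 59069 and 62168, and with a filter 5 times as high 8386, 7149, 8642, 10981 and 11576. Loci by FPKM numbered 545, 187, 371, 1163 and 1314, with 5 added 136, 58, 117, 397 and 524, and with the filter 5 times as high 340, 113, 244, 746 and 855. With 0.1 added they numbered 1080, 396, 744 and 1801 in the first 4. Centring on the median gave 714 loci for SMG6/XRN1 over control. It lowered the share of called features that were higher: for SMG6/XRN1 over XRN1 to 62.4% of isoforms, against 73.8%, and 78.2% of loci, against 88.8%; for isoforms over control to 65.6%, against 81.3%, in SMG6/XRN1 and 63.7%, against 78.3%, in UPF1/XRN1. The share of the leading isoform of DLEU2 could not move on complete-match isoforms, since its only other model was listed at 0 in every library. No such share exists for MIR17HG and MIR22HG, whose leading models are not complete matches. No paired analysis was possible because each condition has 1 library and the labels give no shared replicate numbers. With 31 to 76 reads, MIR22HG is limited by depth.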
